A study of Argopecten irradians with 2 samples.

Results

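The members described here are the unigenes of the bay scallop gill that carry a MAP kinase cascade or dual specificity phosphatase name. A unigene is a transcript assembled from the reads without a genome. Members were chosen by words in their best Swiss-Prot hit (mitogen-activated protein kinase, MAP kinase, stress-activated protein kinase, dual specificity protein phosphatase, ribosomal protein S6 kinase, RAF proto-oncogene, or Ras-related protein R followed by any letters) and by at least 10 reads over both libraries. Of 60308 listed unigenes, 146 carried such a name and 125 of these had enough reads, out of 38391 unigenes with at least 10 reads. The last word also takes the Rab, Rap, Ral and R-Ras GTPases, so 65 of the 125 members are small GTPases and 60 are kinases of the cascade, their partners and phosphatases. By role these 60 are 7 MAP kinases, 7 MAP2Ks, 14 MAP3Ks, 2 MAP4Ks, 5 MAP kinase-activated or MAP kinase-interacting kinases, 5 S6 kinases, 2 binding proteins and 18 dual specificity phosphatases. No unigene carried the RAF proto-oncogene name.

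Bay scallops (*Argopecten irradians*) were exposed for 48 h to 80 mg/L palmitoleic acid (PA), a fatty acid with algicidal activity, dissolved in DMSO. Control scallops received the same volume of DMSO and 0 mg/L PA for 48 h. Gills were pooled, and each condition is represented by 1 library. The sample labels describe 18 scallops per pool, while in the methods there were 3 replicates of 6 pooled scallops each. The strain and age of the animals are not given in the sources used here.

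In a MAP kinase cascade, a MAP3K phosphorylates a MAP2K, which phosphorylates a MAP kinase on a threonine and a tyrosine of its activation loop. The main MAP kinases of animals are ERK, which responds to growth factors through Ras and Raf, and p38 and JNK, which respond to stress, cytokines and microbial products. Dual specificity phosphatases of the MAP kinase phosphatase type remove both phosphates, and in mammals many of them are themselves induced by MAP kinase signalling. Transcript levels do not show the phosphorylation state of any of these proteins. The roles given below are those of the mammalian or *Drosophila* proteins after which the unigenes are named.

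The PA library held 10414545 reads (summed expected counts) and the control library 10305482. A unigene was called higher or lower in the PA library at an FDR of at most 0.001 in the test of Audic and Claverie and a fold change of FPKM of at least 2. FPKM is the fragment count scaled by unigene length and by the mapped fragments of the library. Since each condition has 1 library, the calls concern these 2 libraries rather than the conditions, and no difference below has a replicate check. The log2 fold change of FPKM (PA over control) is also called log2 ratio, and its intervals are 95% Clopper-Pearson intervals that cover counting error only. Among all unigenes with at least 10 reads, 13.3% were called higher and 10.7% lower, and the median log2 fold change was 0.21. Among those with a Swiss-Prot entry, 17.7% were called higher and 12.6% lower. Among 75 unigenes named for axonemal dynein heavy chains, tektins and radial spoke heads, which mark ciliated cells, 19 were called higher and 0 lower. Their summed FPKM was 734.7 in the PA library and 318.4 in the control library. These unigenes were also kept by at least 10 reads over both libraries, and their median read sum was 21. Of them, 27 had at most 3 reads in the control library, so these passed the minimum mainly through their reads in the PA library. Of 84 mucin-named unigenes 18 were called higher and 14 lower, of 34 muscle-named unigenes 7 were called higher and 5 lower, and words for haemocyte proteins matched 0 unigenes. The part of tissue composition in the results below was not tested, and fewer cells of a type cannot be told apart from less RNA per cell.

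Members were more often called lower than higher in the PA library. Of the 125 members, 11 were called higher (8.8%) and 28 lower (22.4%), and their median log2 fold change was -0.35, against 0.21 over all unigenes with at least 10 reads. Among the 60 kinases, partners and phosphatases, 6 were called higher and 12 lower, with a median of -0.30. The calls were unevenly spread over the roles. The 30 kinases of the cascade itself (MAP kinases to MAP4Ks) had 3 called higher and 1 lower, while the 18 dual specificity phosphatases had 3 called higher and 10 lower. Scaling by TMM factors or by the median of ratios instead of the library totals moves every log2 fold change by -0.25 and -0.22, so that the medians of all unigenes become -0.03 and -0.01. With TMM factors 9.97% of all unigenes were called higher and 14.0% lower, and with the median of ratios 10.4% were called higher and 13.7% lower. Under either scaling the 125 members had 8 called higher and 35 lower, the 60 kinases, partners and phosphatases had 4 higher and 16 lower, the kinases of the cascade had 2 higher and 4 lower, and the phosphatases had 2 higher and 10 lower.

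**Figure D1:**
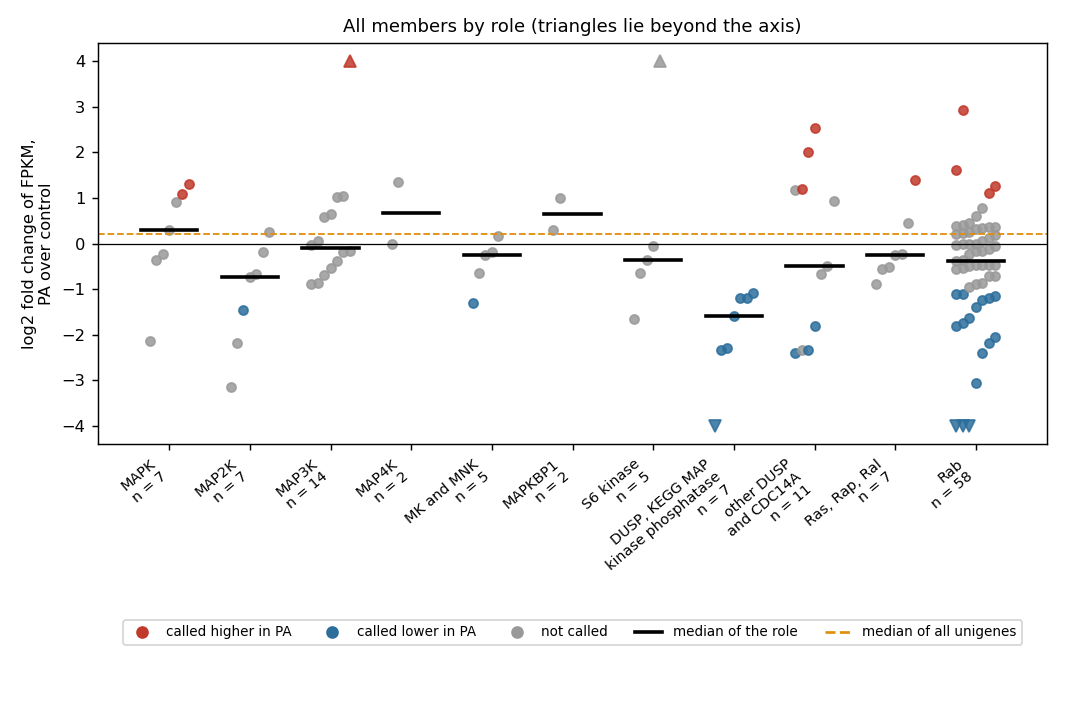
Log2 fold change of FPKM (PA over control) of all 125 members, 1 point per unigene, grouped by role, with the median of each role as a bar and the median of all unigenes with at least 10 reads (0.21) as a dashed line. The 7 members of the KEGG MAP kinase phosphatase entry all lie below -1, while the MAP kinases lie on both sides of 0.

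The unigenes of the MAP kinase phosphatases proper were all lower in the PA library. KEGG places 7 members under its entry for dual specificity MAP kinase phosphatases, which are also all the unigenes of the table under that entry, and 0 of them were called higher and 7 lower. Their median log2 fold change was -1.59, and their summed FPKM was 263.0 in the PA library and 586.5 in the control library. This division of the phosphatases was made after the values were seen, and so were those of its members named here beyond DUSP7 and the DUSP4 unigene Unigene6564_All.

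DUSP7, a cytoplasmic phosphatase that acts on ERK in mammals, was the most abundant member in both libraries by FPKM. Its unigene (Unigene16625_All, 2219 bp) had 5309 reads in the PA library and 11096 in the control library. Its FPKM was 234.41 in the PA library and 494.77 in the control library, which is a log2 ratio of -1.08 with an interval from -1.13 to -1.03. By FPKM it ranked 240 among all unigenes with at least 10 reads in the PA library and 154 in the control library. It made up 14.7% of the summed FPKM of all members in the PA library and 21.8% in the control library. The sum over the other 6 unigenes of the entry, without DUSP7, was 28.6 FPKM in the PA library and 91.7 FPKM in the control library.

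DUSP4, a nuclear phosphatase of ERK, JNK and p38, had the largest differences in this entry among unigenes with reads in both libraries. Unigene6564_All (3023 bp) had 85 reads (2.74 FPKM) in the PA library and 425 reads (13.82 FPKM) in the control library, a log2 ratio of -2.33 with an interval from -2.69 to -2.0. The other DUSP4 unigene, Unigene2166_All (3830 bp), had 219.55 reads (5.56 FPKM) in the PA library and 1062.87 reads (27.18 FPKM) in the control library, a log2 ratio of -2.29 with an interval from -2.50 to -2.08. Both DUSP4 unigenes were therefore about 5-fold lower in the PA library (5.04-fold and 4.89-fold).

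DUSP10 and DUSP16, which act on p38 and JNK, were lower by smaller amounts. The DUSP16 unigene (Unigene4409_All) had 138 reads (3.14 FPKM) in the PA library and 411 reads (9.46 FPKM) in the control library, a log2 fold change of -1.59. The DUSP10 unigene Unigene17523_All had 178 reads (6.37 FPKM) in the PA library and 402 reads (14.53 FPKM) in the control library, a log2 fold change of -1.19. A second DUSP10 sequence was assembled as a cluster of 2 contigs. Its Contig2 had 325 reads in the PA library and 731.66 in the control library, and its Contig1 had 0 reads in the PA library and 25.34 in the control library, which is at least 8.54-fold lower against a floor of 3 reads. Summed over the cluster, the log2 fold change was -1.24, and the cluster as a whole was called lower.

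The 7 calls were also made with TMM factors and with the median of ratios. On cluster sums the 7 unigenes form 6 clusters and singletons, since 2 DUSP10 contigs share a cluster, and all 6 were called lower. Of all clusters and singletons, 10.9% were called higher and 7.79% lower. When edgeR's exact test was given a biological coefficient of variation (BCV) of 0.2, to stand for variation among pools, 3 of the 7 were called lower, against 5.06% of all unigenes called higher and 4.76% lower. At a BCV of 0.4 the count was 0 of 7, against 0.581% of all unigenes called higher and 1.02% lower. The 3 were both DUSP4 unigenes and DUSP10 Contig1.

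**Figure D2:**
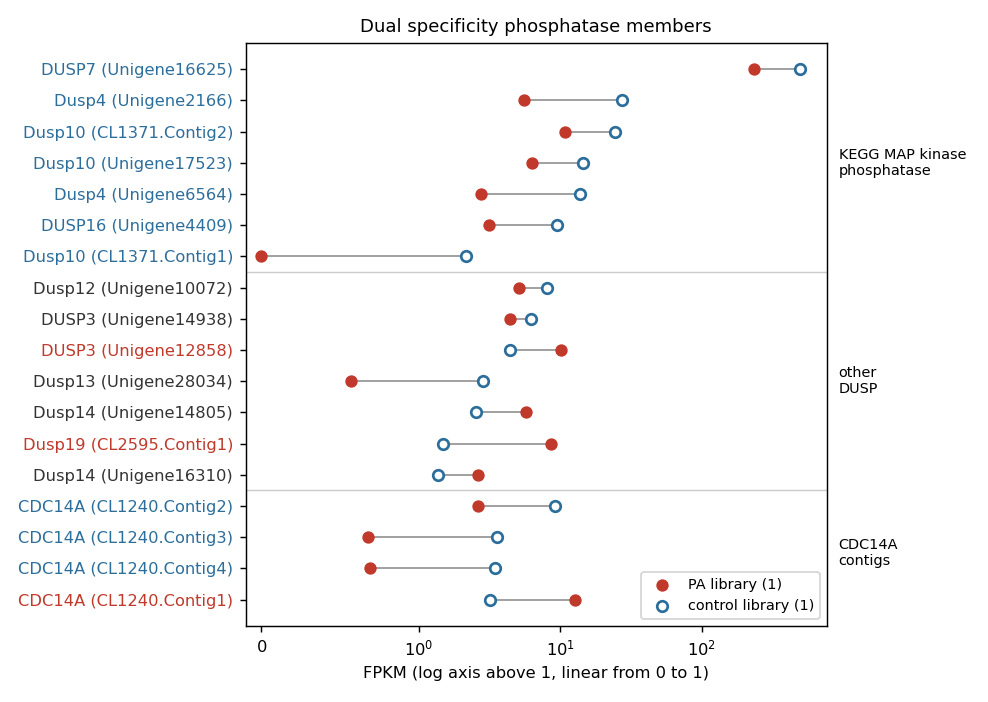
FPKM of the 18 dual specificity phosphatase members in the PA library (filled) and the control library (open), on an axis that is linear from 0 to 1 and logarithmic above, with red names called higher and blue names called lower in the PA library. All 7 unigenes of the KEGG MAP kinase phosphatase entry lie lower in the PA library, and DUSP7 has the highest level, 234.41 FPKM in the PA library against 494.77 in the control library.

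The remaining dual specificity phosphatases, small atypical enzymes outside that entry, went both ways, 4 with a positive and 3 with a negative log2 fold change. Of 7 such unigenes (DUSP3, DUSP12, DUSP13, DUSP14 and DUSP19), 2 were called higher and 0 lower, with a median log2 fold change of 0.94. DUSP19, an atypical phosphatase that regulates the JNK pathway in mammals, had 72 reads (8.61 FPKM) in the PA library and 12.26 reads (1.48 FPKM) in the control library on CL2595.Contig1_All, a log2 ratio of 2.54 with an interval from 1.68 to 3.59. Its sister contig, which fell short of the read minimum, had 0 reads in the PA library and 5.74 in the control library, and the cluster sum gave 1.98. DUSP3, a small phosphatase that acts on ERK and JNK in mammals, had 181.15 reads (10.21 FPKM) in the PA library and 78.26 reads (4.45 FPKM) in the control library on Unigene12858_All, a log2 ratio of 1.2 with an interval from 0.81 to 1.60. This call was lost with TMM factors (0.95) and with the median of ratios (0.98). A second, shorter DUSP3 unigene had 28 reads in the PA library and 39 in the control library and was not called. DUSP14 had 55 and 27 reads in the PA library on its 2 unigenes and 24 and 14 reads in the control library, with log2 fold changes of 1.18 and 0.94, neither of which was called. DUSP12 had 81 reads in the PA library and 127 in the control library (log2 fold change -0.66, not called). A DUSP13 fragment of 389 bp had 2 reads in the PA library and 10 in the control library (-2.33, not called).

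CDC14A, a cell cycle phosphatase that opposes cyclin-dependent kinases, was called in both directions on contigs of a single cluster. Contig1 had 278.58 reads in the PA library and 69 in the control library (4.0-fold higher, log2 interval 1.62 to 2.40). Contig2 had 63.88 reads in the PA library and 220.61 in the control library, a log2 ratio of -1.80. Contig3 had 17.5 reads in the PA library and 90.93 in the control library (-2.40), and Contig4 had 18.03 reads in the PA library and 89.46 in the control library (-2.33). The sum of the cluster was 377.99 reads in the PA library and 470 in the control library, a log2 fold change of -0.33 that was not called. The 4 contigs carry fractional expected counts, so reads were shared between them, and 4 of the 13 calls among the phosphatases come from this cluster. Without CDC14A, 2 phosphatase members were called higher and 7 lower.

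The MAP kinases themselves were not lower as a group. Of 7 members, 2 were called higher and 0 lower, and their median log2 fold change was 0.29. ERK (Mapk3, Unigene12370_All, 1700 bp) had 279 reads (16.2 FPKM) in the PA library and 131 reads (7.68 FPKM) in the control library, a log2 ratio of 1.08 with an interval from 0.77 to 1.39. This call was lost with TMM factors (0.83) and with the median of ratios (0.86). p38 (mapk14, Unigene21014_All, 1683 bp) was the most abundant MAP kinase, with 378 reads (22.18 FPKM) in the PA library and 200 reads (11.85 FPKM) in the control library. Its log2 ratio of 0.90 (interval 0.65 to 1.16) lay below the 2-fold limit. JNK (bsk, Unigene11105_All, 2820 bp) had 155 reads (5.36 FPKM) in the PA library and 180 reads (6.28 FPKM) in the control library, a log2 fold change of -0.23 whose interval (-0.55 to 0.09) includes 0.

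Among the other MAP kinases, MAPK15, an atypical kinase with a role in cilium formation and autophagy in animal cells, was called higher. CL2009.Contig2_All had 218 reads (7.33 FPKM) in the PA library and 87.83 reads (2.98 FPKM) in the control library, a log2 ratio of 1.30 with an interval from 0.93 to 1.67. Another contig of its cluster, without a Swiss-Prot name, had 100 reads in the PA library and 24.26 in the control library, and the sum of the cluster gave 1.49. Of the 75 ciliary marker unigenes 19 were also called higher, and the part of ciliated cells in this difference was not tested. Mapk7 (ERK5) had 110 reads in the PA library and 140 in the control library (log2 ratio -0.37), and Mapk6 (ERK3) had 67 reads in the PA library and 54 in the control library (0.29), and neither was called. A short Mapk6 fragment of 386 bp had 3 reads in the PA library and 13 in the control library.

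The ratio of the phosphatase level to the kinase level therefore differed between the libraries. The summed FPKM of the 7 MAP kinases was 58.0 in the PA library and 38.8 in the control library, and that of the 7 MAP kinase phosphatase unigenes was 4.53 times as high in the PA library and 15.1 times as high in the control library. This ratio is a description of these 2 libraries, was computed after the values were seen, and is set mainly by DUSP7.

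The MAP2Ks, which phosphorylate the MAP kinases, had 0 called higher, 1 called lower and a median log2 fold change of -0.74 over 7 members. MKK3 (Map2k3, Unigene11255_All, 2498 bp), a kinase of p38, had 117 reads (4.58 FPKM) in the PA library and 317 reads (12.52 FPKM) in the control library, a log2 ratio of -1.45 with an interval from -1.77 to -1.14. Its direction was opposite to that of p38 itself. MKK7 (Map2k7, Unigene2544_All), a kinase of JNK, was the most abundant MAP2K, with 477 reads (11.37 FPKM) in the PA library and 786 reads (18.93 FPKM) in the control library, a log2 ratio of -0.74 with an interval from -0.90 to -0.57 that was not called. MKK4 (Map2k4), which acts on JNK and p38, had 123 reads in the PA library and 138 in the control library, a log2 ratio of -0.18 with an interval from -0.54 to 0.18. MEK1 (MAP2K1), the kinase of ERK, had 92 reads in the PA library and 77 in the control library, a log2 ratio of 0.24 with an interval from -0.21 to 0.70. The last 3 members are short MAP2K5 sequences with 18.36, 18.64 and 11 reads in all. Their log2 fold changes were -0.67, -3.15 and -2.19, and none was called. These values from few reads enter the median of -0.74. With TMM factors and with the median of ratios, the MAP2K5 contig CL4785.Contig2_All was called lower, with 1.88 reads in the PA library and 16.76 in the control library.

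The MAP3Ks at the head of the cascade were expressed at low levels, with FPKM of at most 4.41 in the PA library and 5.75 in the control library. Few were called, and several had too few reads for a narrow interval. The log2 fold changes of uncalled members reached 1.04 on a MAP3K1 unigene with 29 reads in the PA library and 14 in the control library. Of 14 members, 1 was called higher and 0 lower, and their median log2 fold change was -0.10. The most reads were on a unigene named MAP3K8 (TPL2, a kinase upstream of MEK1 in mammals), but KEGG places it under MAP3K14. It had 317 reads in the PA library and 353 in the control library (log2 ratio -0.17, interval -0.39 to 0.05). The single call was a contig of MAP3K7 (TAK1, which links cytokine and Toll-like receptors to JNK and p38). CL4124.Contig2_All had 40 reads in the PA library and 0 in the control library, at least 13.2-fold higher, but Contig1 of the same cluster had 101.87 reads in the PA library and 102.7 in the control library, and Contig3 had 35.13 in the PA library and 64.3 in the control library. Summed, TAK1 had 177 reads in the PA library and 167 in the control library, a log2 fold change of 0.07, and the cluster as a whole was not called. MAP3K19, among the most negative of the MAP3Ks, had 141 reads in the PA library and 253 in the control library (log2 fold change -0.86). It was called lower with TMM factors (-1.10) and the median of ratios (-1.08). Contig3 of MAP3K7 (-0.89) was also called lower with TMM factors (-1.13) and the median of ratios (-1.11). MAP3K19 was named after its values were seen. MAP4K3, the only MAP4K, had 239.46 reads in the PA library and 238.17 in the control library on its main contig.

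The kinases downstream of the MAP kinases had few calls. Of 5 MAP kinase-activated or MAP kinase-interacting kinases, 0 were called higher and 1 lower, and their FPKM ranged from 1.74 to 49.63 in the PA library and from 4.32 to 77.93 in the control library. MNK2 (mknk2, Unigene20059_All), which phosphorylates the translation factor eIF4E, had the second highest read sum of the 60 members. It had 2496 reads (49.63 FPKM) in the PA library and 3880 reads (77.93 FPKM) in the control library, a log2 ratio of -0.65 with an interval from -0.72 to -0.58 that was below the 2-fold limit. MAPKAPK2, a target of p38 that acts on small heat shock proteins, was assembled as 3 member contigs with 910.47, 492.85 and 630.12 reads in the PA library and 1078, 436.68 and 705.91 reads in the control library. Their cluster sum gave a log2 fold change of -0.16. MAPKAPK5, another kinase activated by MAP kinases, was called lower, with 39.76 reads (1.74 FPKM) in the PA library and 97.68 reads (4.32 FPKM) in the control library, a log2 ratio of -1.31 with an interval from -1.88 to -0.76. Of 5 S6 kinases 0 were called. S6 kinase beta-1, a target of the TOR pathway, had 441 reads in the PA library and 681 in the control library (log2 ratio -0.64, interval -0.82 to -0.47), and the RSK-type S6 kinase 2 alpha, a target of ERK, had 247 reads in the PA library and 252 in the control library (-0.04). The 2 MAP kinase-binding protein 1 unigenes had 41 and 24 reads in the PA library and 33 and 12 in the control library, and neither was called.

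**Figure D3:**
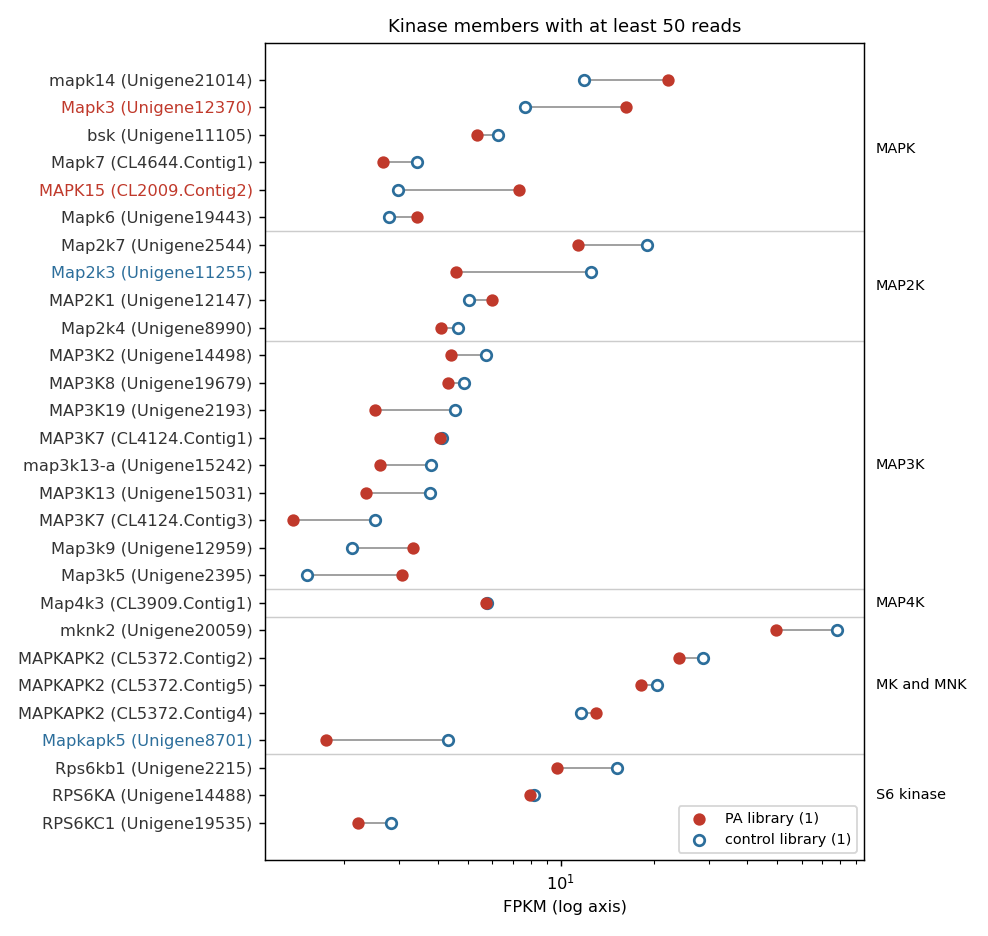
FPKM (log axis) of the kinase members with at least 50 reads in the PA library (filled) and the control library (open), grouped by tier, with red names called higher and blue names called lower in the PA library. ERK (Mapk3), p38 (mapk14) and MAPK15 lie higher in the PA library, while MKK3 (Map2k3) and MAPKAPK5 lie lower.

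**Figure D4:**
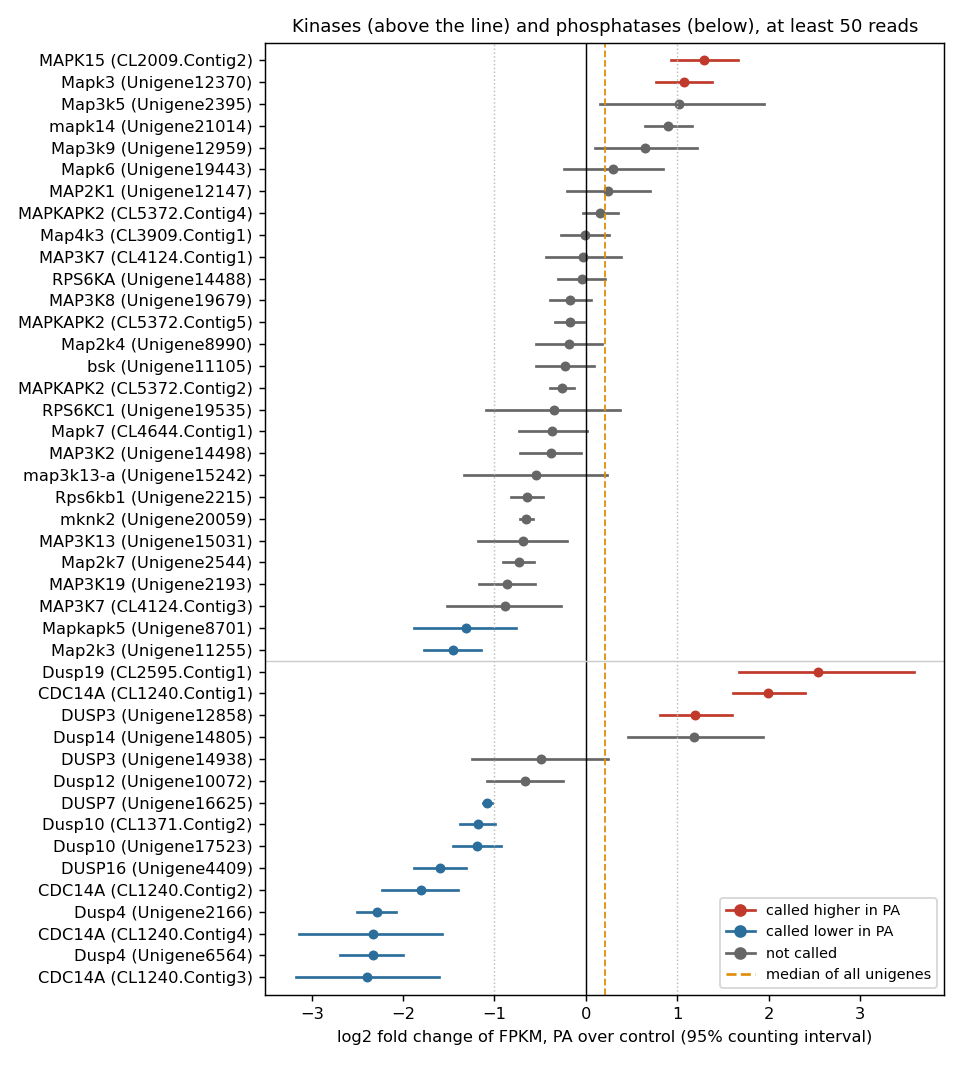
Log2 fold change of FPKM (PA over control) with its 95% counting interval for kinases (top) and dual specificity phosphatases (bottom) with at least 50 reads in all and more than 3 in each library, dotted lines marking the 2-fold limits. Of 28 kinase intervals 1 lies wholly beyond a 2-fold limit, and of 15 phosphatase intervals 9 do. These 9 include DUSP19, which lies higher, and the 4 CDC14A contigs. The CDC14A contigs share reads and go both ways, and their cluster sum (-0.33) was not called.

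The 58 Rab GTPases, which the choice of words also takes, direct vesicle traffic and are not part of the cascade. Of these, 4 were called higher and 16 lower, with a median log2 fold change of -0.37. Rab7a, which carries late endosomes to the lysosome, had the most reads of them. CL5014.Contig1_All had 2967.47 reads (63.84 FPKM) in the PA library and 6753.69 reads (146.75 FPKM) in the control library, a log2 ratio of -1.2 with an interval from -1.26 to -1.14. Rab20, a Rab of phagosomes and endosomes, had 227 reads (6.49 FPKM) in the PA library and 1187 reads (34.27 FPKM) in the control library, a log2 ratio of -2.40 with an interval from -2.61 to -2.20. Rab15, a Rab of early and recycling endosomes, had 101 reads (3.61 FPKM) in the PA library and 413 reads (14.89 FPKM) in the control library, a log2 ratio of -2.04 with an interval from -2.38 to -1.73. Of other Rabs, named after their values were seen, Rab-5A was called lower, with log2 fold changes of -1.11 and -1.10 on its 2 contigs, and so were Rab9a (-1.24), RAB32 (-1.63) and Rab7L1 (-1.73). Other Rabs of endosomes were not called, among them the Rab-5C unigene Unigene16647_All (-0.16), Rab21 (-0.87), Rab14 (-0.48), Rab22a (-0.05) and Rab4b (0.00). Of these, Rab21 was called lower with TMM factors (-1.12) and with the median of ratios (-1.09). Rab1A of the early secretory pathway had the Rab unigene with the highest FPKM, 147.25 in the PA library and 212.32 in the control library, which was not called (log2 fold change -0.53). A less abundant Rab1A contig, CL4172.Contig2_All, was called lower (-2.19), as was the sum of its cluster (-1.18). Rab11A of recycling endosomes had 1967.43 and 2326 reads in the PA library on its 2 unigenes and 1788.16 and 2011 reads in the control library, with log2 fold changes of 0.12 and 0.20.

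The Rabs called higher were a Rab11B contig (CL1269.Contig3_All), Rab3 and 2 contigs of Rab35. The Rab11B contig had 379.1 reads in the PA library and 122.61 in the control library (log2 ratio 1.62, interval 1.31 to 1.91), and the sum of its 6 contigs gave 1.01. Rab3, a Rab of regulated exocytosis, had 554 reads in the PA library and 254 in the control library (log2 fold change 1.11), a call that was lost with TMM factors (0.86) and the median of ratios (0.89). Rab35, which acts in endocytic recycling, was called in both directions within a cluster. Contig2 had 403.69 reads in the PA library and 52.89 in the control library, a log2 ratio of 2.92. Contig3 had 300.47 reads in the PA library and 123.72 in the control library (1.27), while Contig1 had 31.84 reads in the PA library and 263.39 in the control library (-3.06). The cluster sum gave 0.73, which was not called. Rab2 showed the same kind of division. CL21.Contig2_All had 0 reads in the PA library and 604.52 in the control library, at least 204-fold lower, but CL21.Contig1_All had 2588 reads in the PA library and 2034.48 in the control library. The sums of 2588 reads in the PA library and 2639 in the control library differed by -0.04 on the log2 scale. A Rab-5C contig (CL2798.Contig2_All) with 0 reads in the PA library and 74.97 in the control library, at least 25.3-fold lower, also had a sister contig with 264 reads in the PA library and 200.03 in the control library, and the best Nr hit of this cluster is *Toxoplasma*, a protist and not an animal.

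**Figure D5:**
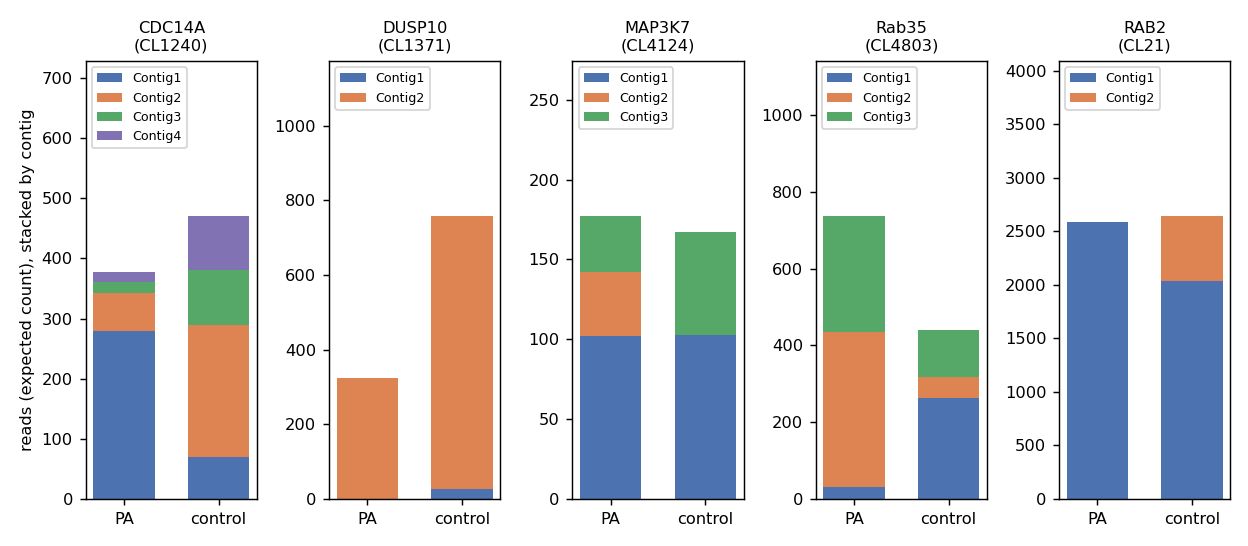
Reads in the PA library (left bar) and the control library (right bar) on the member contigs of 5 clusters, stacked by contig. The totals of CDC14A, MAP3K7 and RAB2 are close between the libraries while single contigs differ, DUSP10 is lower in the PA library on its main contig, and the division between the contigs of Rab35 differs.

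The 7 Ras, Rap and Ral members relay signals toward the cascade and other targets. Of these, 1 was called higher and 0 lower. Rap1b, a relative of Ras, had 2 unigenes that went opposite ways. Unigene19379_All had 750.74 reads (31.12 FPKM) in the PA library and 284.26 reads (11.90 FPKM) in the control library, a log2 ratio of 1.39 with an interval from 1.19 to 1.59. Unigene17158_All had 1549.26 reads (42.41 FPKM) in the PA library and 2257.74 reads (62.43 FPKM) in the control library, a log2 fold change of -0.56. Both counts are fractional, so these unigenes shared reads with other sequences. The 3 Ral-A contigs had log2 fold changes of -0.24, -0.51 and 0.46, and none was called.

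The wider pathway was collected by words in the Swiss-Prot name, without the members. Its genes named below were picked after their values were seen. Upstream, among 18 receptor and adaptor unigenes 3 were called higher (16.7%) and 2 lower (11.1%). These shares are near those of all unigenes with a Swiss-Prot entry, 17.7% higher and 12.6% lower. Of these calls, 2 of the higher and 1 of the lower were fibroblast growth factor receptor contigs of a cluster whose sum lay below 2-fold. The Raf kinases and their scaffolds had 0 of 8 called. The main B-Raf unigene, which fills the place of the unmatched Raf name, had 615 reads (11.03 FPKM) in the PA library and 306 reads (5.54 FPKM) in the control library, a log2 ratio of 0.99 with an interval from 0.79 to 1.19. Among 18 unigenes collected by names of Ras and its regulators 3 were called higher and 6 lower, of which 5 were contigs of an IQGAP1 cluster that went both ways. Of the other lower calls, 3 fell on Ras GTPase-activating protein nGAP and 1 on NF-kappa-B inhibitor-interacting Ras-like protein 1. These names therefore also take proteins that are not regulators of Ras by name alone, and their action on Ras was not tested.

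Stress inputs and scaffolds had more calls downward. Among 49 unigenes of stress inputs 4 were called higher (8.2%) and 15 lower (30.6%). Of all unigenes with a Swiss-Prot entry 17.7% were called higher and 12.6% lower. The 7 GADD45 alpha unigenes, named for a DNA damage-induced activator of MAP3K4 in mammals, had 1 called higher and 4 lower. Their unigene with the most reads had 1892 in the PA library and 2384 in the control library and was not called (log2 fold change -0.35), while another had 986 reads in the PA library and 2856 in the control library (-1.55, called lower). The 11 Cdc42 unigenes had 0 called higher and 6 lower. On contigs of clusters whose sums lay below 2-fold were 2 of these 6 Cdc42 calls, 2 of the 4 lower GADD45 alpha calls and the single higher one. The 5 unigenes of TNF receptor-associated factor 5 (TRAF5) had 2 called higher and 1 lower. The 2 higher ones were contigs of 1 cluster, whose sum gave a log2 fold change of 1.75. The lower one was a contig of a cluster whose sum lay below 2-fold. Among 13 scaffold unigenes 1 was called higher (7.692%) and 6 lower (46.15%). Of these 7 calls, 6 fell on unigenes named JNK-interacting protein 4, most of them contigs of a single cluster. The sum of that cluster (log2 fold change -0.89) lay below 2-fold, and it held the higher call and 4 of the 6 lower calls. Among 14 unigenes of protein phosphatase 2A subunits, which also act on these kinases, 4 were called higher and 3 lower. Of these calls, 3 of the 4 higher and all 3 lower fell on contigs of clusters whose sums lay below 2-fold.

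Transcription factors were collected by names of AP-1, ATF, CREB, ETS and MEF2 proteins, which include MAP kinase targets. Of 23 unigenes, 3 were called higher and 10 lower, with a median log2 fold change of -0.60. The names also take CREB3-like proteins and ATF-6 beta, membrane-bound factors of the endoplasmic reticulum, and of the 18 unigenes left without them, 2 were called higher and 8 lower. ATF-3, a stress-induced bZIP factor, had 0 called higher and 4 lower of 7 unigenes, and its summed FPKM was 92.7 in the PA library and 245.0 in the control library. Both Elk-3 contigs, named for an ETS factor phosphorylated by ERK, were lower, with log2 fold changes of -2.53 and -1.10. c-Jun (transcription factor AP-1) was abundant in both libraries, with 3190 reads (170.54 FPKM) in the PA library and 3987 reads (215.24 FPKM) in the control library, a log2 fold change of -0.34 that was not called. c-Fos, its partner, had 77 reads in the PA library and 20 in the control library, a log2 ratio of 1.93 with an interval from 1.21 to 2.72, while Fos-related antigen 1 had 127.01 reads in the PA library and 269.7 in the control library (-1.10).

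Members near the read minimum carry little information. Just inside it were MAP3K5 with 6 reads in the PA library and 4 in the control library, S6 kinase alpha-5 with 10 in the PA library and 0 in the control library, and a MAP2K5 fragment with 2 in the PA library and 9 in the control library. Just outside it were MAP3K15 with 8 reads in the PA library and 1 in the control library, a Rab1A fragment with 1 in the PA library and 8 in the control library, and Rab39b with 6 in the PA library and 3 in the control library. The 21 unigenes left out had a median length of 294 bp, against 1984 bp for the members, and 0 of them were called. The 125 members fall into 99 clusters and singletons, and 52 of them have fractional counts. Their best Swiss-Prot hits are from other species, with E-values of at most 1e-50 for 92 of the 125, so the gene names are those of the nearest known proteins.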

How the data were processed

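Gill RNA of 1 PA-exposed and 1 control pool was sequenced. The authors used SOAPnuke to filter reads, Trinity to assemble each library and TGICL to cluster transcripts (contigs of a cluster share a CL number), then Bowtie for mapping and RSEM for expression. They deposited expected counts and FPKM per unigene, with annotation. The deposited comparison table also holds the authors' log2 fold changes, p-values and FDR and 2 expression columns, none of which were used.

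Members were found by the Swiss-Prot words given with the report. Members, role classes and word lists were chosen with earlier results of these data known. Expected counts were rounded to whole numbers and compared by the two-sided test of Audic and Claverie, with Benjamini-Hochberg adjustment over all 60308 unigenes. Log2 fold changes are ratios of FPKM, with 0 set to 0.01. A library with 3 reads or fewer was set to 3 reads for a bound. Genes named in the text are, per role with at least 3 members, the member with the most reads and up to 3 called in each direction with at least 10 reads in each library, every ERK, p38, JNK and MAP2K member with at least 50 reads, called members with 3 reads or fewer in 1 library and at least 50 in the other, and 3 unigenes on each side of the read minimum. All other genes in the text were named after their values were seen.

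Alternatives were TMM factors, the median of ratios, a pseudocount of 1 FPKM, a minimum fold change of 4, an FDR of 0.05, edgeR's exact test with an assumed BCV of 0.2 or 0.4, a minimum of 50 reads or none, cluster sums, and leaving out 2 members whose best Nr hit is no animal. The test was checked on simulated counts. The software was R 4.3.3 (edgeR 4.0.16) and Python 3.11.15 (numpy 2.4.6, scipy 1.17.1, pandas 2.3.3, matplotlib 3.10.9). No genome coordinates or sequences were used.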

Additional observations from a re-analysis of the deposited data

How the results depend on the processing

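With 1 library per condition, the calls allow for counting error between these libraries and not for variation among pools. With a BCV of 0.2 in edgeR's exact test, 4 members were called higher and 12 lower (3 and 5 without the small GTPases). Of all unigenes 5.06% were then called higher and 4.76% lower. With a BCV of 0.4 the counts were 0 and 2 (0 and 0), against 0.581% and 1.02% of all unigenes. The 2 were CL21.Contig2_All and CL2798.Contig2_All, contigs whose cluster sums gave -0.04 and -0.07 and were not called. A fold change of at least 4 left 3 higher and 12 lower (2 and 5), and the share of all unigenes at this limit was not computed. On cluster sums, 7 clusters or singletons were called higher and 17 lower, and CL4803.Contig1_All (0.73 for its cluster) and CL1240.Contig1_All (-0.33) changed sign. The median log2 fold change of the members was -0.60 with TMM factors and -0.57 with the median of ratios. Under both scalings 8 of the 11 higher calls and all 28 lower calls were kept, and 7 lower calls were added. For 30 named members, values were compared with TMM factors, the median of ratios, a pseudocount of 1 FPKM and, for contigs of clusters, cluster sums. The BCV settings and the minimum fold change of 4, which removed most calls, were not part of this count. Of 103 values, 88 kept direction and call, 12 lost the call and 2 reversed. The uncalled MAP2K1 changed sign with TMM factors (-0.0021, against 0.24). No paired analysis was possible because each condition has 1 library and the labels give no replicate numbers.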
